A study of Zea mays with 6 samples.

Results

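The genes described here are the lipid transfer, wax, cutin and lipase genes of maize nodes, 47 of the 5546 genes listed in the deposited node RNA-seq table. A gene was taken when its protein description named a lipid transfer protein, a ketoacyl-CoA synthase, a GDSL protein, a fatty acyl or acyl-CoA enzyme, a glossy, wax or cutin protein, a glycerol-3-phosphate acyltransferase, a desaturase, an oleosin or a lipase, and lipoxygenases and cytochrome P450 proteins were left out. Within the listed genes the rule used the description alone, but it was set with earlier results of these data known. The authors had also listed only genes that they called different between the genotypes. No oleosin was listed. Of the 47 descriptions, 11 were carried over from the protein of another species, mostly another grass, and 41 of the 47 genes matched a RefSeq record, which gave no further name. The members fell into 8 ketoacyl-CoA synthases, 2 wax and fatty acyl reductase entries, 6 lipid transfer proteins, 2 glycerol-3-phosphate acyltransferase entries, 2 other acyl-CoA enzymes, 6 desaturases, 8 GDSL esterases/lipases, 6 phospholipases and 7 other lipases.

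The surface of a young grass shoot is sealed by a cuticle, a cutin polyester embedded in and covered by wax. Epidermal cells activate fatty acids to acyl-CoA, lengthen them with ketoacyl-CoA synthases for wax, pass them to glycerol-3-phosphate acyltransferases for cutin, and export the products, and lipid transfer proteins are thought to carry lipids through the cell wall. GDSL proteins form a large family of secreted esterases and lipases, one branch of which polymerises cutin, whereas desaturases and phospholipases shape membrane lipids and free the polyunsaturated fatty acids from which jasmonate is made.

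WT was the inbred line B73, and zmte1-2 was a line with a premature stop in ZmTE1, which encodes the RNA-binding protein terminal ear1, recovered from an ethyl methanesulfonate mutagenesis and crossed back to B73. Seedlings of both genotypes grew in the field, and nodes were taken at 28 days after germination, together with internodes by the labels. There were 3 libraries of each genotype, numbered 1 to 3, and no label told whether a number was a separate plant or the position of a node. The title of the series mentions auxin, but no label of these libraries names an auxin treatment. The zmte1-2 plants share 1 mutant allele, so that other changes left by the mutagenesis cannot be told apart from the loss of ZmTE1.

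Values are FPKM (sequenced fragments divided by transcript length and by library size), a level that may be compared between genes, and they are given in the order of libraries 1, 2 and 3. ZmTE1 itself (GRMZM2G085113) was at 0.51, 1.19 and 1 FPKM in WT and at 0.33, 0.1 and 0.49 FPKM in zmte1-2, too low for the test. The table holds only genes that the authors had called different between the genotypes, which makes every share below a share of already selected genes. Library 2 of zmte1-2 and, less so, library 1 of WT stood apart. The former's log2 values correlated across genes with those of zmte1-2 libraries 1 and 3 at 0.7293 and 0.6268, where libraries 1 and 3 correlated with each other at 0.9364. WT library 1 correlated with WT libraries 2 and 3 at 0.7949 and 0.838, and those with each other at 0.9259. Across genes, the deviations of WT library 1 and zmte1-2 library 2 from their genotype means correlated at 0.5172. Of the HD-ZIP IV epidermal regulators none was listed, and the single listed epidermal marker, Protodermal factor 1 (GRMZM2G141325), ranged from 3.21 to 37.67 FPKM in WT and from 3.4 to 6.71 FPKM in zmte1-2. The meristem gene knotted-1 (GRMZM2G017087) was at 75.29 to 142.66 FPKM in WT and 16.97 to 81.65 FPKM in zmte1-2. Neither of these passed the test. The liguleless2-like gene AC232238.2_FG004 entered the meristem list by its name alone and is not read here as a meristem marker. It was at 3.01, 5.09 and 3.06 FPKM in WT and at 11.69, 7.88 and 9.79 FPKM in zmte1-2. It was called higher (log2 fold change 1.30, limma adjusted p = 0.0393).

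Of the 47 members, 31 reached 1 FPKM in at least 3 libraries and were tested with limma on log2(FPKM + 0.5). At an adjusted p under 0.05 in limma, 6 members (19.4% of the tested ones) were lower in zmte1-2 and 3 (9.68%) were higher, beside 34.2% lower and 6.02% higher over all 3987 tested genes. The 6 that fell were a ketoacyl-CoA synthase, a long-chain acyl-CoA synthetase, a lysophosphatidate acyltransferase, a pair of phospholipases and a triacylglycerol lipase. The 3 that rose were another ketoacyl-CoA synthase, a glycerol-3-phosphate acyltransferase and a lipid transfer protein. The median log2 fold change of the tested members was 0.20, whereas that of all tested genes was -1.08. The members' median turned negative without zmte1-2 library 2 (-0.49) or without zmte1-2 library 3 (-0.14). In all 47 members, whether tested or not, the mean was higher in zmte1-2 for 24 (51.1%), beside 35.1% of all listed genes. No zmte1-2 library reached the lowest WT library for 16 members (34.0%, beside 48.8% of all listed genes) and all 3 lay above the highest WT library for 9 (19.1%, beside 11.4%). The counts describe the list, and no test of the list against other genes was made. In a bulk library, fewer cells of a type and less RNA per cell cannot be told apart.

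**Figure D1:**
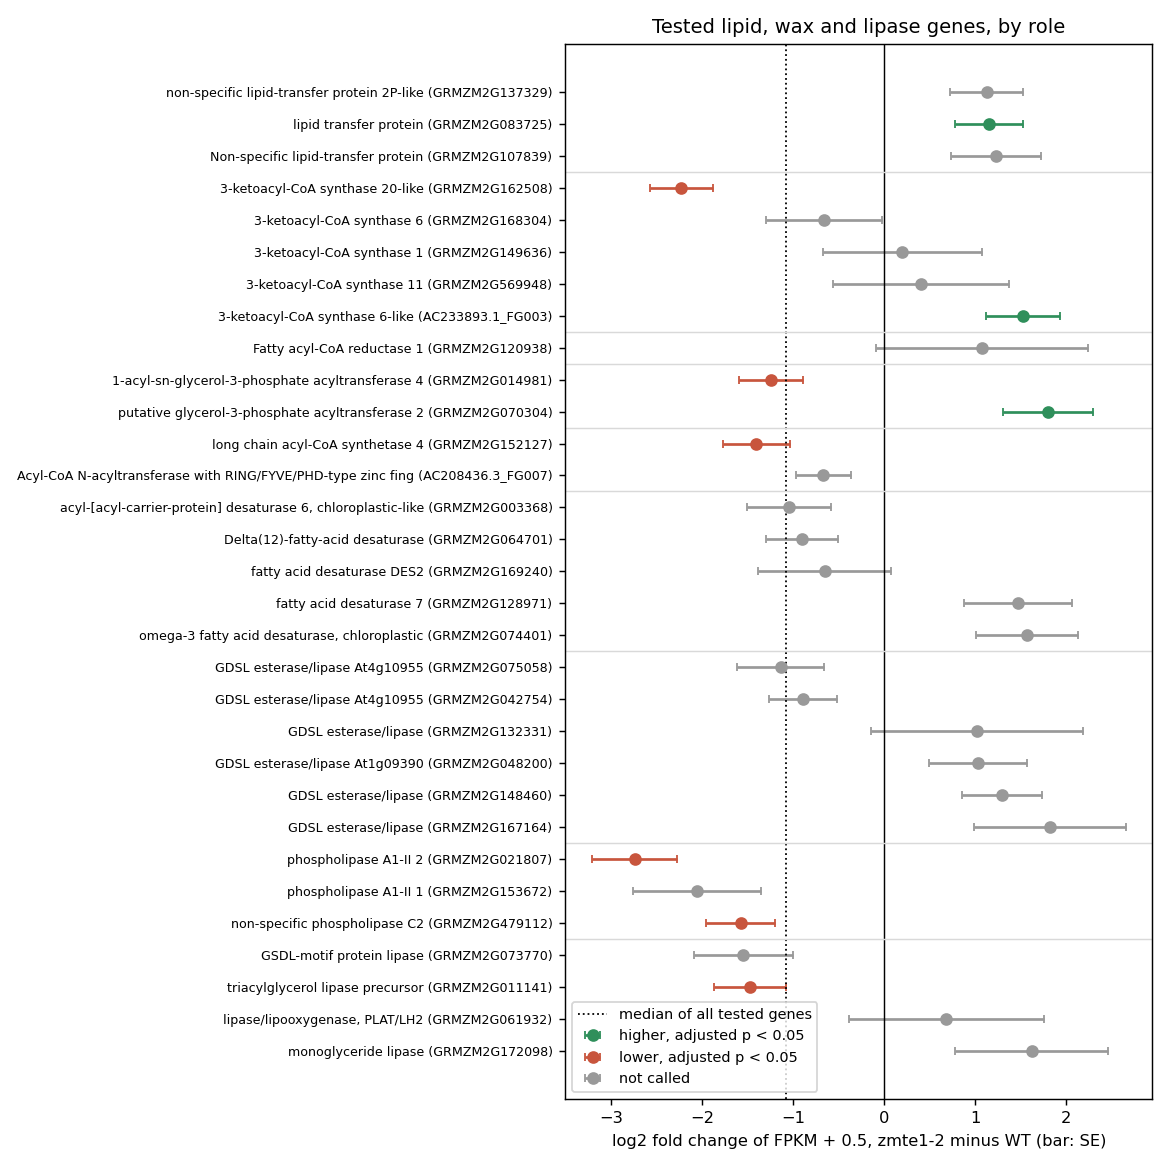
Log2 fold change of FPKM + 0.5 (zmte1-2 minus WT) for the 31 tested members, with the standard error as a bar, ordered by role. The dotted line marks the median of all 3987 tested genes at -1.08, and the bars of several uncalled members cross 0. The 6 lower members sit at or to the left of -1.25 and the 3 higher members at or to the right of 1.15.

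The counts depended on single libraries. Without WT library 3 or without zmte1-2 library 1, limma called 0 members in either direction (7 lower and 2 higher members at an unadjusted p under 0.05 without the first, 6 and 3 without the second), beside 0.0502% and 0.0251% of all tested genes called lower. Without WT library 1 it called 1 lower and 0 higher (7 and 2 at an unadjusted p under 0.05), beside 3.71% and 0.251% of all tested genes. These shares belong to the adjusted calls. No share of all tested genes was computed at the unadjusted threshold for these fits, so the unadjusted counts cannot be set against them. Leaving out zmte1-2 library 3 gave 3 lower and 1 higher (17.6% and 1.86% of all tested genes), and leaving out WT library 2 gave 6 lower and 1 higher (25.5% and 4.11%). Without zmte1-2 library 2 it called 9 lower and 11 higher members, beside 48.9% lower and 20.2% higher of all tested genes. The 9 members called with all libraries were among these. With WT library 1 and zmte1-2 library 2 both left out, the counts were again 9 and 11 (44.8% and 18.9% of all tested genes).

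The general fall of the listed genes also bears on the direction of each member. When the libraries were rescaled by the median of ratios of the listed genes, the median of all tested genes moved from -1.08 to -0.09 and that of the members from 0.20 to 1.17. With this scaling limma called 2 members lower and 8 higher, beside 5.17% lower and 13.3% higher of all tested genes. All 3 rises kept their call, and of the 6 falls only the ketoacyl-CoA synthase 20-like gene and phospholipase A1-II 2 kept theirs. The factors by which libraries were divided came from genes already selected as different. They were 1.262 to 1.827 in WT and 0.6083 to 0.7398 in zmte1-2, which raised zmte1-2 relative to WT. Rises thus tended to grow and falls to shrink, and a rise kept or gained this way is no separate support. A fit without the mean-variance trend gave 6 lower and 5 higher members (35.1% and 6.6% of all tested genes), and the unadjusted threshold of 0.05 with a log2 fold change of 1 or more in either direction gave 9 and 8 (47.3% and 10.2%). Of the 31 tested members, 5 changed direction after rescaling, none of them called (AC208436.3_FG007, GRMZM2G168304, GRMZM2G064701, GRMZM2G169240 and GRMZM2G042754, at log2 fold changes from 0.01 to 0.10). None of the 9 called members changed direction under any alternative that was run. As the groups of all 9 did not overlap, most alternatives could not have reversed them. Only rescaling of the 6 falls could have done so.

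Ketoacyl-CoA synthases, which carry out the first and chain-length-setting step of fatty acid elongation for wax and suberin, moved in both directions. Of the 8 listed, 5 were tested, 1 fell and 1 rose (34.2% of all tested genes fell and 6.02% rose). The member that fell was the 3-ketoacyl-CoA synthase 20-like gene (GRMZM2G162508). It was at 6.52, 5.37 and 8.19 FPKM in WT and at 0.95, 0.76 and 1.39 FPKM in zmte1-2. The groups were far apart, and the highest zmte1-2 library lay below the lowest WT library. This difference was -2.23 on the log2 scale (SE 0.35, limma adjusted p = 0.0127), and it was -1.28 after rescaling (limma adjusted p = 0.0331). Its relatives in Arabidopsis, KCS20 and KCS2, act in root suberin and cuticular wax.

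The member that rose was the 3-ketoacyl-CoA synthase 6-like gene (AC233893.1_FG003), described from the goatgrass protein. KCS6 of Arabidopsis, also called CER6, makes the very long acyl chains of stem and pollen wax. The maize gene was at 0.51, 0.28 and 0.42 FPKM in WT and at 2.02, 3.93 and 1.04 FPKM in zmte1-2. All zmte1-2 libraries were above all WT libraries, at low levels throughout. On the log2 scale the rise was 1.52 (SE 0.41, limma adjusted p = 0.0335). A second gene described as 3-ketoacyl-CoA synthase 6 (GRMZM2G168304) was at 3.51, 0.38 and 1.27 FPKM in WT and at 0.43, 1.71 and 0.27 FPKM in zmte1-2. These groups overlapped, and the gene did not pass (log2 fold change -0.66, limma adjusted p = 0.363).

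The most abundant synthases differed more between libraries of zmte1-2 than between genotypes. The ketoacyl-CoA synthase 11 gene GRMZM2G569948 was at 17.86, 9.86 and 11.24 FPKM in WT and at 8.33, 86.59 and 6.24 FPKM in zmte1-2. Ketoacyl-CoA synthase 1 (GRMZM2G149636), whose Arabidopsis namesake acts in wax formation, was at 3.74, 2.4 and 3.23 FPKM in WT and at 1.86, 17.48 and 1.13 FPKM in zmte1-2. In both genes library 2 of zmte1-2 was the highest of all 6 libraries, while libraries 1 and 3 of zmte1-2 were below every WT library. Neither passed the test (log2 fold changes 0.40 and 0.20, limma adjusted p = 0.701 and 0.838), and without zmte1-2 library 2 both turned negative, to -0.76 and -0.87 (limma adjusted p = 0.118 and 0.0639). Library 2 also had the highest zmte1-2 value in GRMZM2G168304 and AC233893.1_FG003.

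The other 3 synthases stayed under the test's minimum. The 19-like gene GRMZM2G031790 was at 0.41 to 0.8 FPKM in WT and 0.13 to 0.25 FPKM in zmte1-2, and the 11-like gene GRMZM2G137694 was at 0.48 to 1.21 and 0.32 to 0.43 FPKM. In both, all zmte1-2 libraries were below WT. The other synthase 11 gene (GRMZM2G156620) lay the opposite way, at 0.04 to 0.15 FPKM in WT and 0.27 to 0.47 FPKM in zmte1-2. The sources used here do not say how reads were divided between similar synthases, so that levels of close copies are uncertain.

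**Figure D2:**
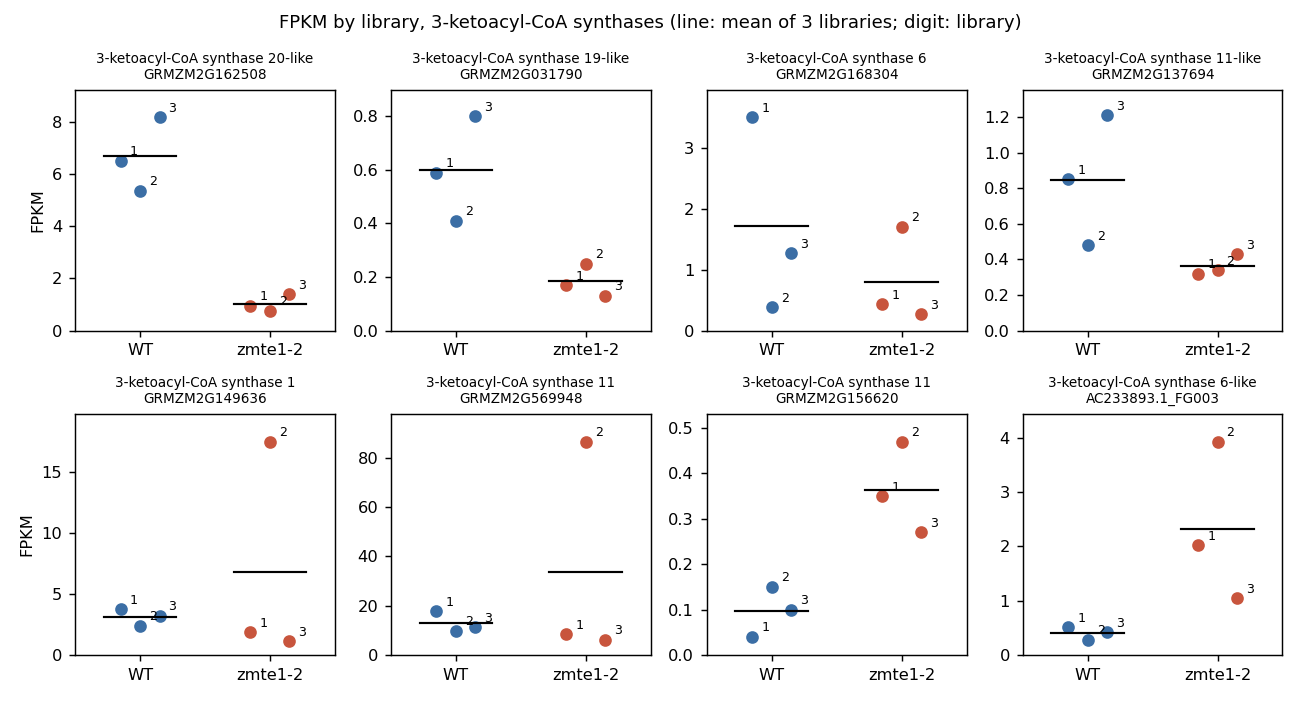
FPKM of the 8 ketoacyl-CoA synthases in each library, with the mean of 3 libraries as a line and the library number beside each point; each panel has its own axis from 0. Library 2 of zmte1-2 reaches 86.59 FPKM in GRMZM2G569948 and 17.48 FPKM in GRMZM2G149636, far above the other 5 libraries.

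Fatty acyl-CoA reductases turn very long acyl chains into the alcohols of wax and of suberin, and in anthers into those of the pollen wall. Fatty acyl-CoA reductase 1 (GRMZM2G120938) was at 1.25, 2.51 and 1.76 FPKM in WT and at 6.12, 0.21 and 22.87 FPKM in zmte1-2. Libraries 1 and 3 of zmte1-2 were the highest of the 6 and library 2 was the lowest. Its log2 fold change was 1.07 (SE 1.16, limma adjusted p = 0.417), and without library 2 of zmte1-2 it was 2.45 (limma adjusted p = 0.0122).

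The other member named for wax, glossy15 (GRMZM2G160730), encodes an AP2-type transcription factor that keeps maize leaves in the juvenile, wax-covered state, and is thus no lipid enzyme. It was at 1.66, 0.49 and 1.39 FPKM in WT and at 0.19, 0.71 and 0.12 FPKM in zmte1-2. The groups overlapped through the low WT library 2 and the zmte1-2 library 2, and the gene stayed under the test's minimum.

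Lipid transfer proteins were mostly at the higher level in the mutant: 5 of 6 had the higher mean in zmte1-2 (35.1% of all listed genes did), and in 4 of 6 every zmte1-2 library was above every WT library (11.4% of all listed genes). Of the 3 that were tested, 1 rose (6.02% of all tested genes did). All 3 were higher at an unadjusted p under 0.05 in limma, as were 441 of all 3987 tested genes. The lipid transfer protein GRMZM2G083725 was at 9.17, 10.58 and 10.51 FPKM in WT and at 18.97, 20.92 and 30.42 FPKM in zmte1-2. The WT libraries were close to one another, and every zmte1-2 library was above them. Its level rose by 1.15 on the log2 scale (SE 0.37, limma adjusted p = 0.0471), and by 2.27 after rescaling (limma adjusted p = 0.0203). The call was made in 7 of 14 alternatives, with adjusted p from 0.0203 to 0.145 in limma, and it was lost without the FPKM minimum (limma adjusted p = 0.0533).

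The most abundant of them, the non-specific lipid-transfer protein GRMZM2G107839, was at 40.53, 86.84 and 83.08 FPKM in WT and at 144.17, 113.69 and 232.46 FPKM in zmte1-2. The 2P-like protein GRMZM2G137329 was at 8.41, 13.26 and 13.09 FPKM in WT and at 24.07, 33.47 and 20.24 FPKM in zmte1-2. In both genes the groups did not overlap, but the spread kept them short of the threshold (log2 fold changes 1.23 and 1.13, limma adjusted p = 0.0704 and 0.0563). After rescaling both passed (log2 fold changes 2.38 and 2.24, limma adjusted p = 0.033 and 0.0233). Library 2 of zmte1-2 was not set apart from libraries 1 and 3 by more than 1 on the log2 scale in any of the 3 tested genes.

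The remaining 3 were near the detection limit. The glycolipid transfer protein gene GRMZM2G100650, whose product moves glycolipids between membranes inside the cell and not through the wall, was at 0.18, 0.66 and 0.58 FPKM in WT and at 1.79, 0.72 and 1.61 FPKM in zmte1-2. The precursor gene GRMZM2G071575 was the single exception in direction, at 0.58 to 1.4 FPKM in WT and 0.11 to 0.32 FPKM in zmte1-2. Without the FPKM minimum it was called lower (log2 fold change -0.99, limma adjusted p = 0.0474). It was then the only lipid transfer protein called in either direction. GRMZM2G039383 was listed at 0 in 5 libraries and at 0.84 FPKM in zmte1-2 library 3.

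Both acyltransferases of the glycerolipid pathway passed the test, in opposite directions. The putative glycerol-3-phosphate acyltransferase 2 (GRMZM2G070304) belongs to a plant family whose Arabidopsis members supply cutin and suberin monomers. It was at 10.29, 22.78 and 12.74 FPKM in WT and at 77.35, 33.41 and 52.49 FPKM in zmte1-2. All zmte1-2 libraries were above all WT libraries, and the nearest pair was WT library 2 and zmte1-2 library 2. The log2 fold change of 1.80 (SE 0.50, limma adjusted p = 0.0353) was the largest rise among the called members, and it was 2.93 after rescaling (limma adjusted p = 0.0244).

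The 1-acyl-sn-glycerol-3-phosphate acyltransferase 4 gene (GRMZM2G014981), which makes phosphatidic acid for membrane and storage lipids, went the other way. It was at 12.95, 9.45 and 11.42 FPKM in WT and at 3.66, 4.95 and 4.77 FPKM in zmte1-2. The libraries of each genotype were close together, with no overlap. The gene fell by 1.25 on the log2 scale (SE 0.35, limma adjusted p = 0.0363), near the median of all tested genes, and after rescaling the log2 fold change was -0.16 (limma adjusted p = 0.779).

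Long-chain acyl-CoA synthetases activate free fatty acids and so feed wax, cutin and membrane synthesis. The synthetase 4 gene (GRMZM2G152127) was at 16.45, 11.45 and 14.35 FPKM in WT and at 4.42, 4.27 and 6.4 FPKM in zmte1-2. Every zmte1-2 library was below every WT library. In log2 terms the change was -1.41 (SE 0.37, limma adjusted p = 0.0321), and -0.31 after rescaling (limma adjusted p = 0.541). AC208436.3_FG007 entered the list by its description as an acyl-CoA N-acyltransferase with a zinc finger, a kind of protein known in Arabidopsis to act on histones. It was at 1.07 to 1.96 FPKM in WT and 0.43 to 0.86 FPKM in zmte1-2, without overlap and without passing the test (log2 fold change -0.67, limma adjusted p = 0.0888).

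**Figure D3:**
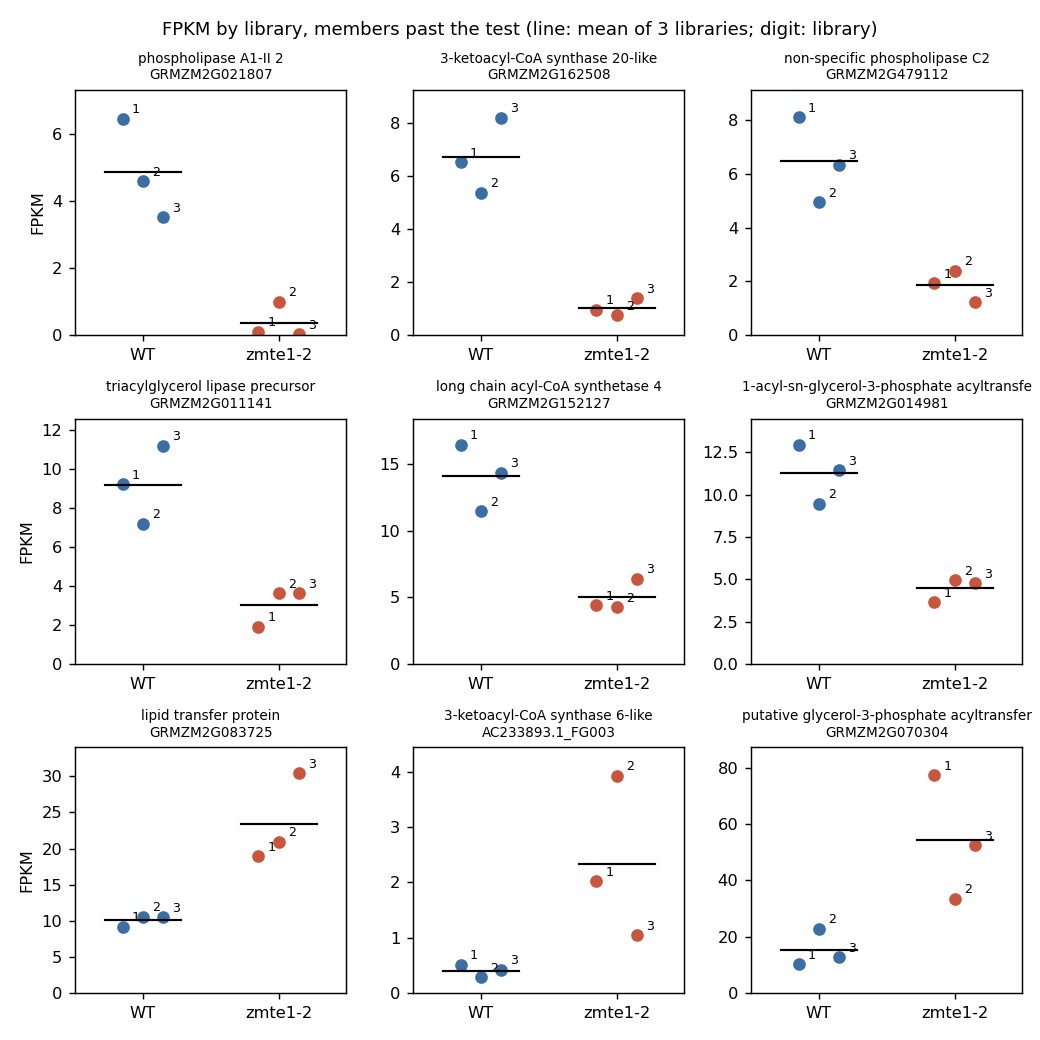
FPKM of the 9 members that passed the test, in each library, with the mean of 3 libraries as a line and the library number beside each point; each panel has its own axis from 0. No WT point overlaps a zmte1-2 point in any panel, and the gap is narrowest in relative terms for GRMZM2G070304, where WT library 2 is at 22.78 and zmte1-2 library 2 at 33.41 FPKM.

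The most abundant member by its mean over all libraries was a desaturase, fatty acid desaturase 7. Of the 6 desaturases, 5 were tested and 0 passed in limma. At an unadjusted p under 0.05 in limma, 441 of all 3987 tested genes were higher and 2133 lower. Of the desaturases, 2 were higher and 0 lower at that threshold. These 2 were the chloroplast omega-3 desaturases, which add the last double bond of linolenic acid, the fatty acid from which jasmonate is built. Fatty acid desaturase 7 (GRMZM2G128971) was at 81.79, 115.6 and 50.39 FPKM in WT and at 208.43, 421.29 and 116.52 FPKM in zmte1-2. Every zmte1-2 library was above every WT library, although by less than 1 FPKM between zmte1-2 library 3 and WT library 2. The log2 fold change was 1.47 (SE 0.60, limma adjusted p = 0.0709). The other one (GRMZM2G074401) was at 27.06, 62.1 and 29.38 FPKM in WT and at 135.81, 164.77 and 58.97 FPKM in zmte1-2. WT library 2 was slightly above zmte1-2 library 3 (a log2 fold change of 1.57 with an SE of 0.56, limma adjusted p = 0.0571). After rescaling both passed, with log2 fold changes of 2.63 and 2.72 (limma adjusted p = 0.0389 and 0.0362).

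The 4 other desaturases, all under 5 FPKM, had the lower mean in zmte1-2, although GRMZM2G064701 and GRMZM2G169240 turned to 0.01 and 0.07 on the log2 scale after rescaling. The acyl carrier protein desaturase 6-like gene (GRMZM2G003368), of the plastid enzymes that make oleic from stearic acid, was at 3.12, 2.34 and 3.07 FPKM in WT and at 1.39, 0.34 and 2.1 FPKM in zmte1-2. Its groups did not overlap, but the test was not passed (log2 fold change -1.05, limma adjusted p = 0.0837). The Delta(12) desaturase GRMZM2G064701, which makes linoleic acid, was at 1.53 to 4.23 FPKM in WT and 0.95 to 1.59 FPKM in zmte1-2 (log2 fold change -0.90, limma adjusted p = 0.0838). DES2 (GRMZM2G169240) ranged from 0.25 to 4.32 FPKM in WT and from 0.58 to 2.02 FPKM in zmte1-2. The acyl-desaturase GRMZM2G143625 was at 0.34 to 1.32 FPKM in WT and 0.03 to 0.33 FPKM in zmte1-2.

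Summed over the 47 members, the level was 333, 442.8 and 355.5 FPKM in WT and 761.1, 966 and 732.1 FPKM in zmte1-2. Every zmte1-2 sum was above every WT sum. The desaturases contributed 90.52 to 184.8 FPKM of it in WT and 181.2 to 588.3 FPKM in zmte1-2, and the lipid transfer proteins 59.69 to 111.9 FPKM and 169.1 to 285.7 FPKM. The sum thus rests mainly on a few abundant genes.

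Of the 8 GDSL esterases/lipases, 6 had the higher mean in zmte1-2 (35.1% of all listed genes did). Of the 6 tested, 0 passed in limma, beside 34.2% lower and 6.02% higher of all tested genes. At an unadjusted p under 0.05 in limma 1 was higher and 2 lower, beside 441 and 2133 of all 3987 tested genes. GRMZM2G148460 was at 3.11, 5.62 and 3.52 FPKM in WT and at 14.13, 6.68 and 12 FPKM in zmte1-2. It was the single GDSL gene with every zmte1-2 library above WT, library 2 being the nearest (a log2 fold change of 1.30 with an SE of 0.44, limma adjusted p = 0.051). The gene passed after rescaling (log2 fold change 2.34, limma adjusted p = 0.0264).

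In other GDSL genes, libraries 1 and 3 of zmte1-2 were high and library 2 was low. GRMZM2G132331 was at 1.97, 2.72 and 2.92 FPKM in WT and at 9.78, 0.34 and 25.79 FPKM in zmte1-2. GRMZM2G167164 was at 0.34, 0.94 and 1.36 FPKM in WT and at 5.36, 0.77 and 12.71 FPKM in zmte1-2. GRMZM2G048200 was at 5.12, 11.57 and 12.43 FPKM in WT and at 22.64, 10.83 and 27.91 FPKM in zmte1-2. With all libraries these genes had log2 fold changes of 1.02, 1.82 and 1.03 (limma adjusted p = 0.438, 0.0935 and 0.124). Without zmte1-2 library 2 they were 2.45, 2.75 and 1.42 (limma adjusted p = 0.00777, 0.00655 and 0.0308). The low genes GRMZM2G048458 (0.08, 0.08 and 0.12 FPKM in WT, 0.87, 0 and 4.11 FPKM in zmte1-2) and GRMZM2G069503 (0 to 0.78 FPKM in WT, 0.86, 0.04 and 1.95 FPKM in zmte1-2) had the same order of zmte1-2 libraries and were not tested.

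The other 2 GDSL genes had the lower mean in zmte1-2, and GRMZM2G042754 turned to 0.01 on the log2 scale after rescaling. GRMZM2G075058 was at 6, 5.06 and 5.49 FPKM in WT and at 1.8, 4.67 and 1.2 FPKM in zmte1-2, with all zmte1-2 libraries below WT and library 2 the closest. The log2 fold change was -1.14 (limma adjusted p = 0.0754), and -1.60 without zmte1-2 library 2 (limma adjusted p = 0.0103). GRMZM2G042754 was at 3.33, 2.08 and 2.71 FPKM in WT and at 0.89, 0.88 and 2.08 FPKM in zmte1-2. Its groups met at 2.08 FPKM (log2 fold change -0.89, limma adjusted p = 0.0746).

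**Figure D4:**
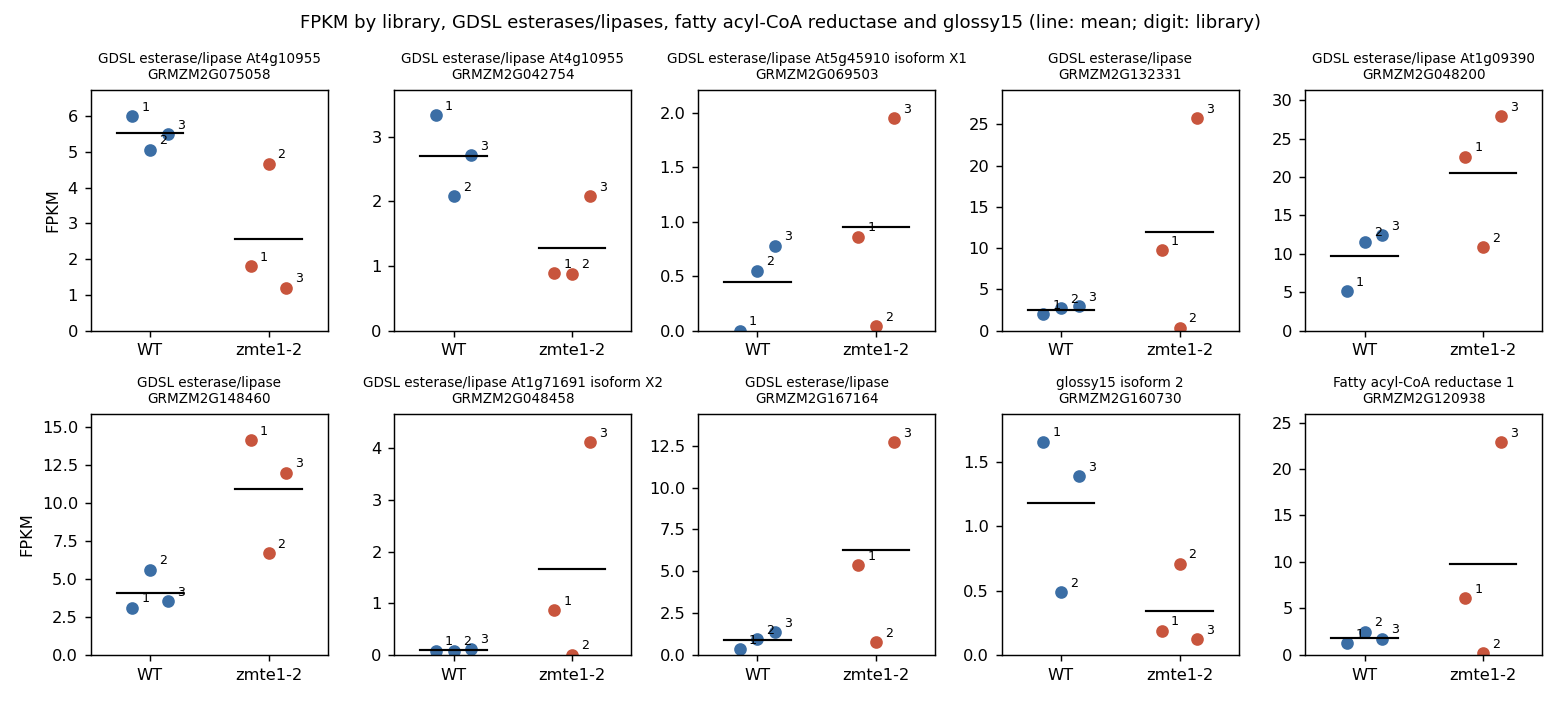
FPKM of the 8 GDSL esterases/lipases, glossy15 and fatty acyl-CoA reductase 1 in each library, with the mean of 3 libraries as a line and the library number beside each point; each panel has its own axis from 0. In fatty acyl-CoA reductase 1 and GRMZM2G132331 zmte1-2 library 3 is at 22.87 and 25.79 FPKM and library 2 at 0.21 and 0.34 FPKM, under all WT libraries.

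The 10 listed genes whose description names pollen summed to 87.08 to 118.1 FPKM in WT and to 317.6, 57.32 and 424.1 FPKM in zmte1-2 libraries 1, 2 and 3. They were taken by description, with earlier results of these data known. None of the 10 was at 0 in all libraries of a genotype. In zmte1-2, 4 of them had library 3 highest and library 2 lowest, and 3 had library 2 highest. Most of the sums of zmte1-2 libraries 1 and 3 came from 1 gene, so that they do not describe the list as a whole. It was the pollen Ole e 1 and extensin family gene GRMZM2G166218, at 11.48 to 52.01 FPKM in WT and at 267.35, 15.65 and 369.42 FPKM in zmte1-2. Of the 6 tested genes of that list, 1 was lower and 0 were higher in limma, beside 34.2% and 6.02% of all tested genes. The part of the pollen genes in the values of the reductase and the GDSL genes was not tested.

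Phospholipases were lower in zmte1-2 for the most part: of 6 members, 5 had the lower mean (64.9% of all listed genes did), 4 lay entirely below WT (48.8% of all listed genes), and 2 of the 3 tested fell (34.2% of all tested genes). Phospholipase A1 cuts the first acyl chain from phospholipids and galactolipids. The phospholipase A1-II 2 gene (GRMZM2G021807) was at 6.45, 4.59 and 3.52 FPKM in WT and at 0.1, 0.99 and 0.03 FPKM in zmte1-2. It had the largest fall of all tested members, with every zmte1-2 library under 1 FPKM. The log2 fold change was -2.74 (SE 0.47, limma adjusted p = 0.0136), and -2.03 after rescaling (limma adjusted p = 0.0423).

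Its neighbour, phospholipase A1-II 1 (GRMZM2G153672), was at 5.32, 4.17 and 3.32 FPKM in WT and at 0.27, 3.04 and 0.03 FPKM in zmte1-2. All zmte1-2 libraries were below WT, but library 2 was close to it. The log2 fold change was -2.06 (SE 0.70, limma adjusted p = 0.0519), and without zmte1-2 library 2 it was -2.88 (limma adjusted p = 0.00362). In the deposited coordinates, for which the sources used here name no genome build, this gene runs from 214282205 to 214284834 on chromosome 3 and A1-II 2 from 214289794 to 214298640, 4.96 kb apart on the same strand. Both carry the same kind of description and lie side by side, so that reads may have been shared between them, and their values are uncertain to that extent.

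Non-specific phospholipase C2, which releases diacylglycerol from membrane phospholipids, was listed as a pair of genes. GRMZM2G479112 was at 8.11, 4.95 and 6.34 FPKM in WT and at 1.93, 2.39 and 1.22 FPKM in zmte1-2. It fell by 1.58 on the log2 scale (SE 0.38, limma adjusted p = 0.0268) without overlap of the groups, and with rescaling it had a log2 fold change of -0.57 (limma adjusted p = 0.291). GRMZM2G422670 was at 1.15, 0.96 and 0.64 FPKM in WT and at 0.1, 0.66 and 0.13 FPKM in zmte1-2, under the test's minimum. The phospholipase D alpha 1-like gene GRMZM2G159125, of the enzymes that free phosphatidic acid, was at 0.39 to 0.62 FPKM in WT and 0.1 to 0.33 FPKM in zmte1-2. BODYGUARD 3 (GRMZM2G136571) is described as a probable lysophospholipase, and its Arabidopsis namesake BODYGUARD is needed for an intact cuticle. It was listed at 0 in all WT libraries and at 0.14, 0.64 and 0 FPKM in zmte1-2.

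Among the 7 other lipases 1 of 4 tested genes fell (25.0%, beside 34.2% of all tested genes). The triacylglycerol lipase precursor gene GRMZM2G011141 was at 9.24, 7.19 and 11.2 FPKM in WT and at 1.92, 3.62 and 3.62 FPKM in zmte1-2. Its groups were well separated, with a log2 fold change of -1.47 (SE 0.40, limma adjusted p = 0.0335), and with rescaling the log2 fold change was -0.42 (limma adjusted p = 0.433). The GSDL-motif lipase GRMZM2G073770, as its description spells it, was at 16.38, 12.15 and 14.04 FPKM in WT and at 2.88, 10.4 and 2.86 FPKM in zmte1-2. All zmte1-2 libraries lay below WT, library 2 the least so (log2 fold change -1.55, limma adjusted p = 0.0546, and -2.11 without that library, limma adjusted p = 0.00575).

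A pair of abundant lipase genes was high in zmte1-2 libraries 1 and 3. Monoglyceride lipase (GRMZM2G172098), which frees the last acyl chain from glycerol, was at 1.66, 9.5 and 5.98 FPKM in WT and at 26.4, 4.87 and 27.51 FPKM in zmte1-2. The PLAT/LH2 lipase gene GRMZM2G061932, named after a lipid-binding domain shared by lipases and lipoxygenases, was at 7.09, 6.07 and 12.46 FPKM in WT and at 26.44, 1.79 and 42.58 FPKM in zmte1-2. Library 2 of zmte1-2 was within the WT range for the former and below it for the latter. Neither passed with all libraries (log2 fold changes 1.62 and 0.68, limma adjusted p = 0.123 and 0.566), and without zmte1-2 library 2 they had log2 fold changes of 2.40 and 1.98 (limma adjusted p = 0.0166 and 0.0112). The other 3 genes were at no more than 1.48 FPKM in any library, namely the triacylglycerol lipases GRMZM2G368610 and GRMZM2G154687 and the lipase GRMZM2G096831.

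The difference between zmte1-2 libraries took opposite signs in different members. Of the 31 tested members, library 2 was above both other zmte1-2 libraries by more than 1 on the log2 scale in 8 (25.8%, beside 17.3% of all tested genes) and below both in 7 (22.6%, beside 16.5%). The 8 were ketoacyl-CoA synthases GRMZM2G569948, GRMZM2G149636 and GRMZM2G168304, both phospholipase A1-II genes, fatty acid desaturase 7, the GSDL-motif lipase and the GDSL gene GRMZM2G075058. The 7 were fatty acyl-CoA reductase 1, the GDSL genes GRMZM2G132331, GRMZM2G167164 and GRMZM2G048200, the PLAT/LH2 and monoglyceride lipases and the acyl carrier protein desaturase. Against the mean of libraries 1 and 3, the log2 difference reached 3.50 in GRMZM2G569948 and -4.29 in GRMZM2G132331. Whether these differences follow the position of the node was not tested, since the labels do not give it. Green leaf genes also differed between libraries: 33 were listed, and their sum was 314.1 to 1205 FPKM in WT and 163 to 237.8 FPKM in zmte1-2, where 13 of 28 tested were lower in limma, beside 34.2% of all tested genes. After rescaling the smallest limma adjusted p among these 13 was 0.0991. GRMZM2G018627 and GRMZM2G414192 of the list share their coordinates and their values in every library. A single locus thus counts more than once in the 33, in the 28 and in the sums. The part of the green leaf genes in the values of the chloroplast desaturases was not tested.

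**Figure D5:**
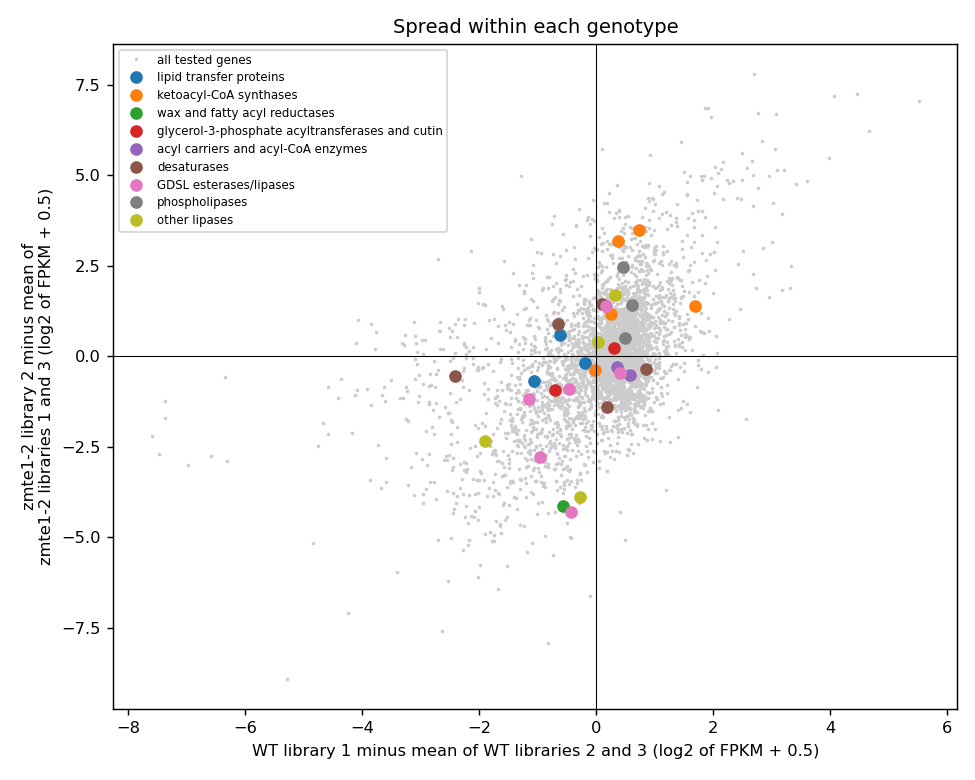
Spread within each genotype for the 31 tested members (coloured by role) over all 3987 tested genes (grey). The horizontal axis is WT library 1 minus the mean of WT libraries 2 and 3, and the vertical axis is zmte1-2 library 2 minus the mean of zmte1-2 libraries 1 and 3, both as differences in log2(FPKM + 0.5). The members reach from -4.29 to 3.50 on the vertical axis.

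Genes outside the list above, chosen by assignment to a lipid pathway or by a lipid or cuticle description, numbered 123, of which 83 were tested. The pathway assignments also brought in genes of other kinds, such as beta-galactosidases, a zinc finger protein and a ribosomal protein. GRMZM2G151476 and GRMZM5G854500 share their coordinates and values, so that a single locus counts more than once in the 123. The counts thus do not describe lipid and cuticle genes alone. In limma 26 of these were lower (31.3%) and 4 higher (4.82%), with a median log2 fold change of -0.93, close to the 34.2%, 6.02% and -1.08 of all tested genes. Cuticle regulators and exporters among them were at low levels. WIN1, in Arabidopsis an activator of wax and cutin genes, was represented by GRMZM2G085678, at 4.02, 3.69 and 3.83 FPKM in WT and at 0.85, 0.97 and 0.91 FPKM in zmte1-2. Its libraries were nearly equal within each genotype (log2 fold change -1.62, limma adjusted p = 0.0132, and -0.72 with rescaling, limma adjusted p = 0.0831). The other WIN1 gene, GRMZM2G106591, was at 1.99, 1.78 and 1.49 FPKM in WT and at 0.69, 1.32 and 0.08 FPKM in zmte1-2 (log2 fold change -1.06, limma adjusted p = 0.0734). Genes described as ABCG11, an Arabidopsis exporter of wax and cutin, had means in opposite orders. GRMZM2G308860 was at 1.35, 1.46 and 2.14 FPKM in WT and at 0.67, 0.38 and 0.77 FPKM in zmte1-2, a fall that was not called with rescaling (log2 fold change -0.96, limma adjusted p = 0.0404, and -0.20 with rescaling, limma adjusted p = 0.744). GRMZM5G817964 was at 0.14, 0.44 and 0.62 FPKM in WT and at 1.58, 0.85 and 1.73 FPKM in zmte1-2, under the test's minimum.

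The members were spread over all 10 chromosomes, with 12 on chromosome 1 and 8 on chromosome 6. Apart from the phospholipase A1-II pair, the GDSL genes GRMZM2G048458 and GRMZM2G132331 lay 77.4 kb apart on chromosome 5, both with zmte1-2 library 3 highest. Of the 47 members, 7 were under 1 FPKM in every library, where 1 library can decide the order of the genotypes.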

How the data were processed

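RNA was sequenced from nodes of 3 WT (B73) and 3 zmte1-2 libraries. The authors deposited a table of 5546 genes with the FPKM of each library, normalised to transcript length and library size by the authors, all past the authors' thresholds (p at or under 0.05, log2 ratio at or beyond 1 in either direction). The sources used here name no aligner, counter, genome build or test. The authors' log2 ratios, p-values and q-values, 9 columns that compare 1 library with 1 library, and genotype means were not used. RNA was extracted with RNeasy by the labels and TRIzol by the methods.

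The 3987 genes that reached 1 FPKM in 3 or more libraries were tested, as log2(FPKM + 0.5), by a two-sided moderated test in limma (version 3.58.1, R 4.3.3, with a mean-variance trend), with Benjamini-Hochberg adjustment over these genes and calls at an adjusted p under 0.05. The pseudocount understates changes of low genes. As the authors selected the genes on the same libraries, the adjusted p gives no share of false calls, and as nothing says that libraries came from separate plants, p-values cover only the spread of these libraries, which may be technical. The depth is unknown, and whole reads were not recovered: 43.9 to 76.1% of low values of single-transcript genes under 500 bases lay within 0.15 of a whole multiple, and no count model was run. The script was tested on simulated data.

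The members, the role groups and the lists were chosen with earlier results of these data known. Named genes were, in each role group, the 3 most abundant tested members and the 3 called members with the smallest p, and over all members the 8 largest called falls and rises, which gave 25 members. The other members and the WIN1 and ABCG11 genes were named after their values were seen. Alternatives were other pseudocounts and filters, median-of-ratios rescaling, no mean-variance trend, the unadjusted thresholds, the replicate block, each library left out, and a list without glossy15 and AC208436.3_FG007, which was chosen after seeing the data. Figures were drawn with matplotlib 3.10.9.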

Additional observations from a re-analysis of the deposited data

How the results depend on the processing

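The counts of 6 members lower and 3 higher, and their median log2 fold change of 0.198, were recomputed under each alternative. Rescaling gave 2 lower, 8 higher and a median of 1.17, an FPKM minimum of 5 a median of 1.03, no mean-variance trend 5 higher, and the unadjusted thresholds 8 higher. With the replicate number as a block limma called 0 lower and 0 higher (8 and 5 at an unadjusted p under 0.05), beside 0.0251% of all tested genes in each direction. That share belongs to the adjusted calls, and none was computed at the unadjusted threshold for this fit. Same-numbered libraries deviated together for number 3 (correlation 0.4056) but not for numbers 1 and 2 (-0.3046 and -0.3985). With 3 libraries of each genotype, these values cannot tell whether the numbers pair the libraries. Leaving out 1 library gave 0 to 9 lower, 0 to 11 higher and medians from -0.491 to 0.32. Leaving out WT library 1 together with zmte1-2 library 2 gave 11 higher and a median of -0.501. The list without glossy15 and AC208436.3_FG007, chosen after seeing the data, had a median of 0.301.

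Of the 25 members named by the rule, those that changed direction were not called in the alternative concerned. AC208436.3_FG007 was at 0.105 after rescaling, where 4 other tested members also changed direction, and those that did so with 1 library left out ranged from -0.138 to 1.98 (GRMZM2G061932), -0.0748 to 2.45 (GRMZM2G120938), -0.0334 to 2.45 (GRMZM2G132331), -0.868 to 0.864 (GRMZM2G149636) and -0.761 to 1.09 (GRMZM2G569948). The first 3 were lowest without zmte1-2 library 3 and the last 2 without zmte1-2 library 2, and these 2 were at -0.746 and -0.516 with WT library 1 and zmte1-2 library 2 both left out. The cause was not tested. No member belonged to the planned class outside lipid metabolism, so leaving that class out gave no other value. Depth is unknown, which limits every value near 0 FPKM.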
